A study of Caenorhabditis elegans with 2 samples.

Results

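The genes described here encode the ATPase CDC-48, the cofactors that bring substrates to it, the ubiquilin shuttle and membrane proteins of endoplasmic reticulum (ER)-associated degradation in the nematode Caenorhabditis elegans. They are 9 of the 19973 protein-coding genes on the nuclear chromosomes: cdc-48.1, cdc-48.2, ufd-1, npl-4.1, npl-4.2, ubql-1, sel-1, sel-11 and cup-2. The genes were chosen by name from the pathway, with the peak signals of the same experiment known, among them the first rank of cdc-48.1. Whether a member held a peak, and how strong it was, is therefore given as a description with no test.

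Binding of CRH-2, a bZIP factor of the CREB family, was measured by ChIP-seq in whole larvae of the second stage (L2), pooled from both sexes, in 1 group of 2 biological replicates. Both came from strain OP425, genotype unc-119(tm4063) III; wgIs425, in which the transgene wgIs425 makes CRH-2 (gene C27D6.4) with GFP and FLAG at its C-terminus. The signal is that of the tagged protein over whole animals, so tissues cannot be told apart, and no untagged strain or other condition was analysed here. The list called replicated here, made by the authors from the pooled and the single-replicate lists with the irreproducible discovery rate procedure, held 5735 peaks with pooled signals from 62.3 to 1625. The pooled list and both replicate lists held 30000 regions each, deposited as peaks together with background. The files give no read depth, and the signal is the authors' value for each region.

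CDC-48, known as p97 or VCP in mammals, is a hexameric ATPase that pulls ubiquitinated proteins out of membranes and complexes. UFD-1 and NPL-4 form its main substrate-recruiting cofactor, and ubiquilins carry ubiquitinated proteins to the proteasome. In the ER, the ligase HRD1 with its partner SEL1L and the derlins pass misfolded proteins back to the cytosol, where CDC-48 extracts them.

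A promoter peak was a replicated peak with its summit at most 1000 bp before, or 250 bp past, the annotated 5′ end of a transcript. Because of trans-splicing, transcription of a worm gene may begin upstream of the 5′ end in the annotation. By this rule 3 of the 9 members had one, cdc-48.1, ubql-1 and cup-2, against 19.3% of all protein-coding genes (3860 of 19973). With a window of 500 bp upstream and 100 bp downstream it was 1 of 9, cdc-48.1, against 15.5% of all genes, so whether the members' share lay above or below that of all genes depended on the window. The 3 had ranks 1, 8 and 1333 by signal among the 5735 peaks. Their signals were 1625, 1129 and 162, so their median, 1129, was the value at ubql-1 alone. The median was 116 for the strongest promoter peak of all 3860 genes that had one. The remaining 6 members, cdc-48.2, ufd-1, npl-4.1, npl-4.2, sel-1 and sel-11, had none. The same 3 members, and no other, had a summit among the 5735 strongest regions of either replicate alone.

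**Figure D1:**
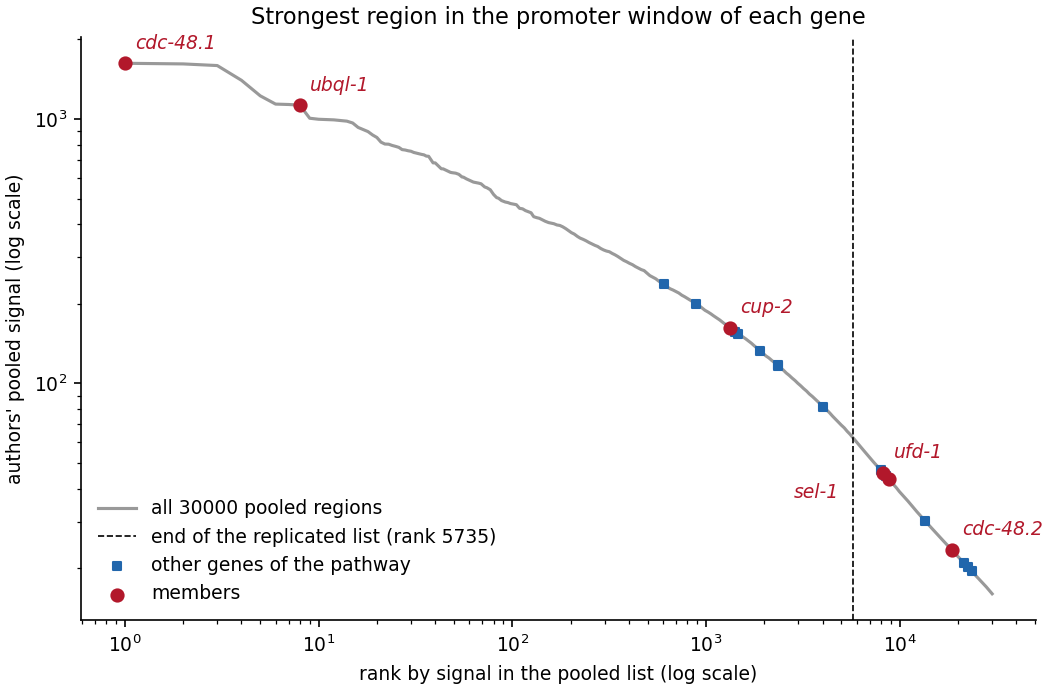
Signal of the strongest pooled region in the promoter window of each gene (y axis, the authors' units, log scale) against its rank in the pooled list (x axis, log scale). Of the members (circles), cdc-48.1, ubql-1 and cup-2 lie left of the dashed line at rank 5735, where the replicated list ends, and ufd-1, sel-1 and cdc-48.2 lie right of it. The grey line shows all 30000 regions and squares show other genes of the pathway.

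The segregase itself is encoded by a pair of paralogs, and only cdc-48.1 had a promoter peak. The peak at chrII:10563424-10563721 (WBcel235, the sequence of ce11) had its summit 165 bp upstream of the single annotated 5′ end of cdc-48.1 (WBGene00007352, minus strand, II 10560036 to 10563407). Its signal was 860 in replicate 1 and 777 in replicate 2, which put it at rank 2 and rank 1. Divided by each replicate's median over the replicated peaks, a scale called relative signal here, it reached 15.3 in both (mean 15.3 ± 0.0355, SD, n = 2). The replicate summits lay 157 and 163 bp upstream, within 8 bp of the pooled one. The next peak by rank, at puf-9, which encodes a Pumilio protein that binds RNA, had a pooled signal of 1616 against 1625 at cdc-48.1.

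The window of cdc-48.2 (WBGene00008053, plus strand, II 8138496 to 8141230) held 0 replicated peaks, and the nearest replicated summit lay 5028 bp from its 5′ end. In the pooled list it held 2 weak regions, with signals of 23.5 at 976 bp and 19.7 at 344 bp upstream, ranks 18520 and 23244 of 30000. Replicate 1 also listed 2 regions there, with signals of 26.9 and 17.2 (ranks 7609 and 13395). Replicate 2 listed 0 in the window, and its nearest regions lay 296 bp downstream (signal 15.8) and 1428 bp upstream (signal 27.7), 1 on either side of the window. The stronger pooled region, 976 bp upstream, was itself just inside the window, and a pooled region of signal 28.4 lay just outside it, 284 bp downstream. The strongest region of cdc-48.1 had 69.1 times the signal of that of cdc-48.2 in the pooled list. The ratio was 31.9 in replicate 1, while in replicate 2 no ratio could be formed. The lowest signals listed were 16 in the pooled list, 9.13 in replicate 1 and 8.71 in replicate 2. The median signal of the pooled list was 27.8, above that of either pooled region in the cdc-48.2 window.

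**Figure D2:**
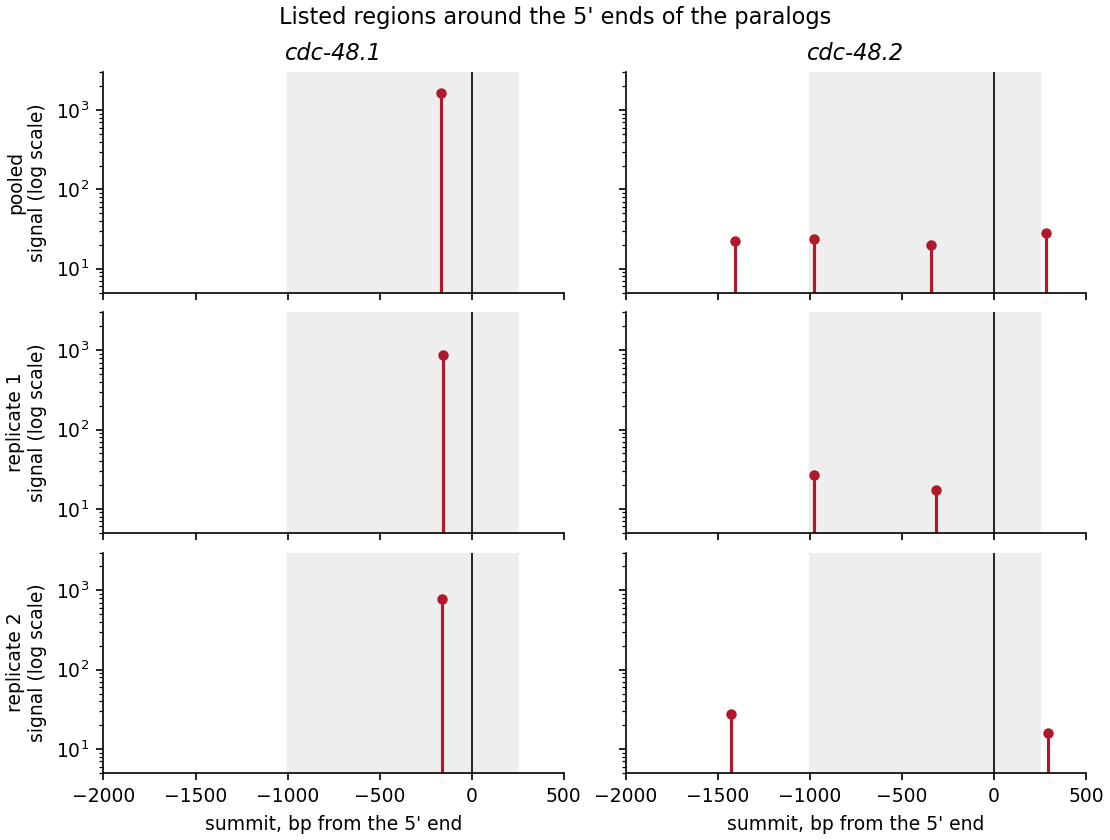
Summits of all listed regions around the 5′ ends of cdc-48.1 and cdc-48.2 (x axis, bp, upstream negative) with their signal (y axis, the authors' units, log scale) in the pooled list and in each replicate. The grey band is the promoter window. One region of signal 777 or more stands at cdc-48.1 in every list, while no region around cdc-48.2 exceeds 28.4.

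The sequences compare the whole cdc-48.1 peak, from 17 to 314 bp upstream of its 5′ end, with the stretch at the same distances from cdc-48.2, chrII:8138182-8138479. Both are written 5′ to 3′ on the strand of the gene, and capitals mark any of 6 motifs searched on both strands: TGACG, the core of the CREB site, TGACGTCA, the CREB palindrome, TGACGTGG and TGACGTGT, of the kind bound by XBP1 and CREB3 factors, the E-box CACGTG, and the repeat GAGAGAGA. TGACG is part of the CREB palindrome and of both XBP1-type sites.
cdc-48.1: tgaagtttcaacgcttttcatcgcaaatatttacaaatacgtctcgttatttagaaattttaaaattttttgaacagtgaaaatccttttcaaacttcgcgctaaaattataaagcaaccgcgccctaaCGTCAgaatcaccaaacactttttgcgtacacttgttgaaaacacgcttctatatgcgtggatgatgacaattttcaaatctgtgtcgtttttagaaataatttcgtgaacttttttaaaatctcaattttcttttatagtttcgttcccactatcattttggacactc
cdc-48.2: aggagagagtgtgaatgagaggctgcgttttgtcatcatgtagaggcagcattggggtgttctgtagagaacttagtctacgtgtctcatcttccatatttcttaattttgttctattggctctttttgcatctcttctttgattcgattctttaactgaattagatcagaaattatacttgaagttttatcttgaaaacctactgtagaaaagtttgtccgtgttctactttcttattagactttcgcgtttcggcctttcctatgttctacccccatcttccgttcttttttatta

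The cdc-48.1 peak held 1 match, a TGACG on the opposite strand, 16 bp from the summit. The stretch from cdc-48.2 held none of the 6. G and C made up 32.2% of the bases at cdc-48.1 and 36.9% at cdc-48.2. The 2 promoter windows shared 0 of 1251 sequences of 31 bases, so in these windows reads of that length from one paralog do not match the other. Every one of the 268 sequences of 31 bases in the cdc-48.1 peak occurred once in the genome.

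The substrate-recruiting cofactor had no promoter peak at any of its genes. For ufd-1 (WBGene00006733, IV 12329408 to 12330890, minus strand) a region below the replicated list was present in all 3 longer lists. Its pooled signal was 46.0, rank 8216, which is 2481 ranks past the end of the replicated list, where the signal was 62.3. The relative signal was 0.401 in replicate 1 and 0.462 in replicate 2 (0.432 ± 0.0431, SD, n = 2), with summits 281 and 292 bp upstream of the nearest 5′ end. The gene just upstream on the same strand, F19B6.1, ends 85 bp before ufd-1, so this summit lay inside F19B6.1, whose own promoter window held no replicated peak.

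The copies npl-4.1 (WBGene00019120, II 5631351 to 5633284) and npl-4.2 (WBGene00019121, II 5622889 to 5624959) had 0 regions in their windows in any of the 4 lists. Their windows are near-identical: 1226 of 1257 sequences of 31 bases (97.5%) were shared between them. As a share of positions, 2.47% of either window held a sequence of 31 bases that occurs once in the genome, against a median of 100% over all genes and under 50% at 599 genes. At the other positions of either window, a read of that length cannot be assigned to one place in the genome. How the authors treated reads that map to several places is not stated in the labels or files, and the part of this in the absence of regions at npl-4.1 and npl-4.2 was not tested. The other 7 members had 89.8% unique positions at cdc-48.1 and 100% at cdc-48.2, ufd-1, ubql-1, sel-1, sel-11 and cup-2.

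**Figure D3:**
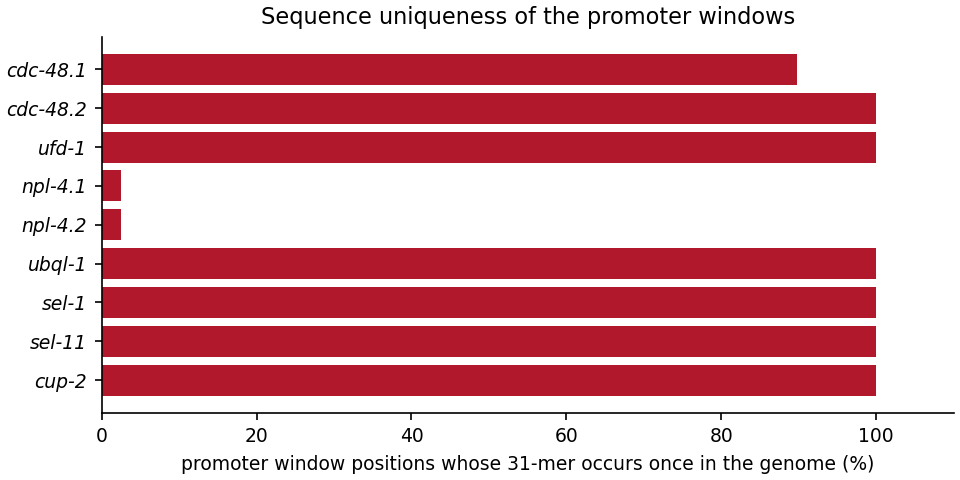
Share of positions in each member's promoter window (x axis, %) at which the sequence of 31 bases occurs once in the genome, both strands counted. The bars of npl-4.1 and npl-4.2 end at 2.47%, and those of the other 7 members at 89.8% or more.

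The shuttle gene ubql-1, the single ubiquilin among the members, had the second strongest peak of the group. It lay at I 7021234 to 7021606, rank 8, with a pooled signal of 1129. Signals were 641 in replicate 1 and 499 in replicate 2, ranks 6 and 9, and relative signals were 11.4 and 9.79 (10.6 ± 1.14, SD, n = 2). Both values lay below those of cdc-48.1 and above those of cup-2, ufd-1 and sel-1, the other members with a region in the window in both replicates. The summit was 547 bp upstream of ubql-1 and 628 bp upstream of pdi-3, a protein disulfide isomerase of the ER transcribed the other way. It also lay 18 bp and 159 bp downstream of the 5′ ends of the non-coding RNA genes VF15C11L.1 and VF15C11L.2. The peak cannot be given to one of these genes.

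Of the members that encode ER membrane proteins, only cup-2, a derlin, had a promoter peak. Its signal was lower than at cdc-48.1 and ubql-1. The peak at I 10400577 to 10400952 had a signal of 162 and rank 1333. Signals were 104 in replicate 1 and 59.8 in replicate 2, ranks 924 and 2158. Relative signals were 1.86 and 1.17 (1.52 ± 0.483, SD, n = 2), so the replicates differed by 1.58-fold, more than at ubql-1 (1.16-fold). This summit too lay between genes on opposite strands, 588 bp upstream of cup-2 and 299 bp upstream of tag-353, the nearer of the pair. The 5′ ends of the non-coding genes F25D7.11 and F25D7.9 were 75 and 146 bp away.

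The genes of the HRD1 ligase and its partner SEL1L had no promoter peak. For sel-1 (WBGene00004759, V 12560732 to 12563383), the SEL1L ortholog, a region below the replicated list lay at the 5′ end in all 3 longer lists. Its pooled signal was 43.5 at 39 bp upstream, rank 8802. Relative signals were 0.363 and 0.448 (0.405 ± 0.0601, SD, n = 2), about those of ufd-1. For sel-11 (WBGene00004768, V 11767328 to 11769899), the HRD1 ortholog, the window held 0 regions in every list. The closest pooled region fell just outside it, 268 bp downstream, with a signal of 21.7 and rank 20499, and regions 403 and 269 bp downstream in replicates 1 and 2 had signals of 13.1 and 12.4.

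The gene upstream of sel-11 on the same strand, syx-5, a syntaxin, ends 105 bp before sel-11 and did have a promoter peak. Its signal was 317, rank 307, at V 11764445 to 11764641, and relative signals were 2.90 and 3.02 (2.96 ± 0.0847, SD, n = 2). That summit was 387 bp upstream of syx-5 and 2811 bp from the 5′ end of sel-11. F19B6.1 and syx-5 were chosen after their values were seen. Many worm genes that lie this close are transcribed together from an upstream promoter, but the annotation used here does not mark operons, and this was not tested for ufd-1 or sel-11.

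When weak regions were counted too, 6 of the 9 members had a region in the window in the pooled list (45.0% of all genes), 6 in replicate 1 (45.6%) and 5 in replicate 2 (44.7%). The members added were ufd-1 and sel-1 in all 3 lists and cdc-48.2 in the pooled list and replicate 1. The regions of ufd-1 and sel-1 had −log10 q-values of 1.90 and 1.72 in the pooled list, and that of cdc-48.2 had 0.37. Every replicated peak had 4.07, the highest value in the pooled list. The first pooled region past the replicated list had 4.07 too, so this value does not mark where that list ends. In replicate 1 the order differed, with 2.20 at cdc-48.2, 1.52 at ufd-1 and 1.17 at sel-1. In replicate 2 ufd-1 had 1.83 and sel-1 1.69, and cdc-48.2 had no region in the window.

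Other cofactors of CDC-48 and other genes of the degradation pathway were taken from a list of 24 genes, of which 9 had a promoter peak (37.5% of the list, beside 19.3% of all genes). Their median signal was 154, beside 116 for all genes with a promoter peak, and none reached the level of ubql-1. Among the cofactors, ufd-3, the worm ortholog of PLAA, was highest, with relative signals of 2.00 and 2.35 (2.17 ± 0.247, SD, n = 2). The UBX-domain gene ubxn-3, of the FAF1 family, had 1.54 ± 0.141, ufd-2, which lengthens ubiquitin chains, had 1.41 ± 0.180, and ubxn-2, of the p47 family, had 1.13 ± 0.234 (SD, n = 2). The proteasome shuttle gene rad-23 had 1.25 ± 0.280 (SD, n = 2).

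Of the ubiquitin-conjugating enzymes and ligases of the ER, ubc-7 had a relative signal of 1.89 ± 0.0602 (SD, n = 2), at rank 892. The ligase gene marc-6, of the MARCH6 (Doa10) family, had 1.11 ± 0.135 (SD, n = 2). At ubc-6, 2 overlapping peaks of ranks 1323 and 2497 lay 294 and 95 bp upstream, and the strongest region of each replicate overlapped both (1.52 ± 0.0873, SD, n = 2). Replicate 1 listed 2 regions there, with signals of 88.6 and 62.0, and replicate 2 listed 1, with 74.0. The ninth gene, ubxn-1, had the lowest rank of these, 4014, and was named after its values were seen: its relative signal was 0.447 in replicate 1 and 0.891 in replicate 2. Among the 15 without a promoter peak were cdc-48.3, a more distant AAA ATPase, ubxn-4, ubxn-5, ubxn-6 and the peptide N-glycanase gene png-1. Replicated summits lay just outside the window at ubxn-6, 1081 bp upstream, and at atx-3, the ataxin-3 deubiquitinase, 1068 bp upstream, with signals of 82.1 and 83.0; atx-3 was named after its values were seen.

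**Figure D4:**
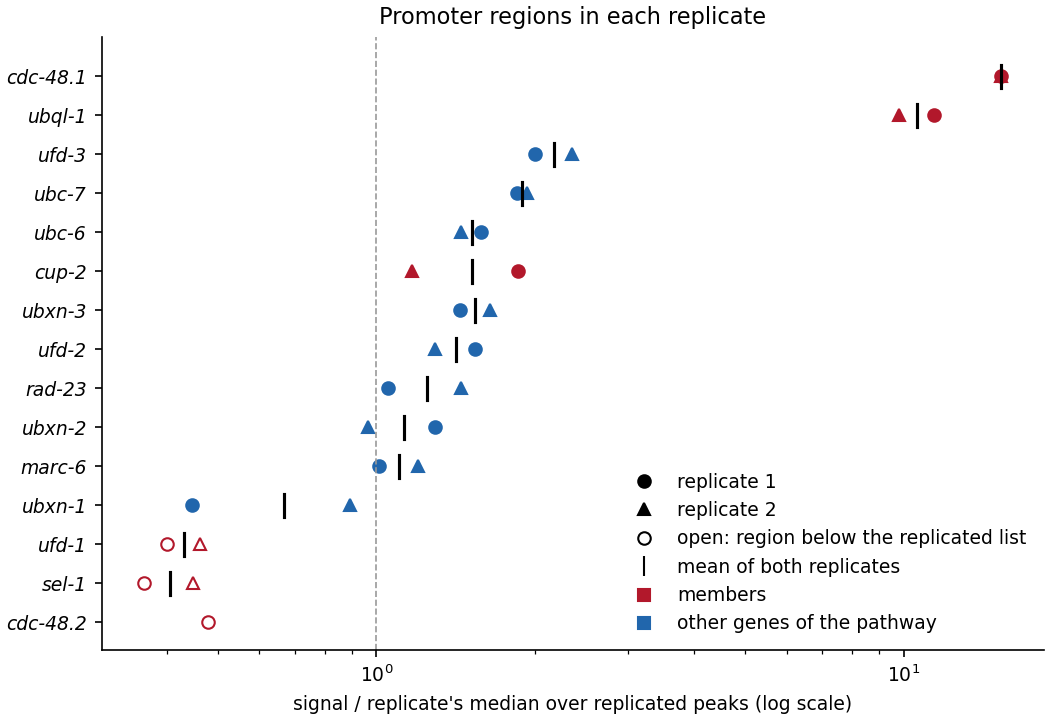
Relative signal (x axis, signal divided by the replicate's median over replicated peaks, log scale) in replicate 1 (circles) and replicate 2 (triangles), with the mean as a bar. Shown is the strongest promoter region of each gene with a promoter peak, and of ufd-1, sel-1 and cdc-48.2, the last in replicate 1 only. Red marks members and blue other genes of the pathway. cdc-48.1 and ubql-1 stand at 9.79 or more, the other replicated peaks between 0.447 and 2.35, and the open symbols, regions below the replicated list, under 0.5. The members npl-4.1, npl-4.2 and sel-11 had no region in the window. Genes of the longer list without a promoter peak are not shown, though some had weak regions.

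Promoter summits were often shared between genes. Of the 3 members with a peak, ubql-1 and cup-2 shared their summit with another protein-coding gene and cdc-48.1 did not. Of the 9 genes of the longer list, ubc-6, rad-23 and ubxn-1 did (33.3%), against 42.1% of all 3860 genes with a promoter peak (1624). The summit at rad-23 lay 221 bp upstream of it and 174 bp upstream of rpn-12, a subunit of the proteasome's regulatory particle. That at ubc-6 was shared with aka-1 and that at ubxn-1 with tipn-1. For cdc-48.1 the snoRNA gene C06A1.9 had its 5′ end 508 bp from the same summit.

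**Figure D5:**
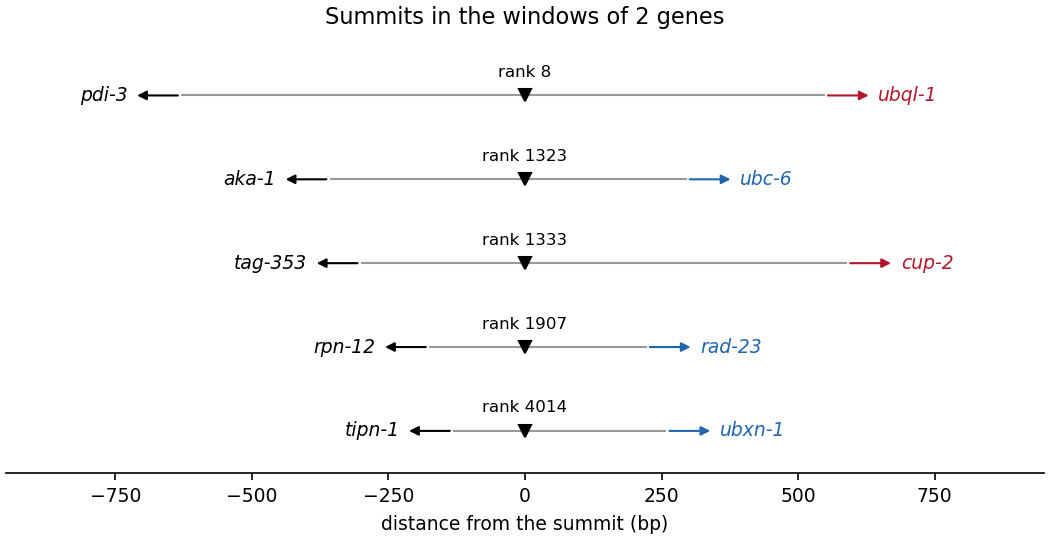
Distances (x axis, bp) from the strongest summit (triangle) to the 5′ ends of the 2 protein-coding genes whose windows hold it, with arrows in the direction of transcription. In all 5 cases the genes point away from each other; the summit at cup-2 is nearer to tag-353 (299 bp) than to cup-2 (588 bp).

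The peak of cdc-48.1 was narrower than those of ubql-1 and cup-2, and base composition differed among the members' peaks. The cdc-48.1 peak was 298 bp wide, that of ubql-1 373 bp and that of cup-2 376 bp, the commonest width in the list. Of all 5735 peaks 595 (10.4%) were narrower than 376 bp, among them 83 of the 100 strongest, whose median width was 269 bp. In the 101 bp around the summit, G and C made up 41.6% at cdc-48.1, 56.4% at ubql-1 and 51.5% at cup-2, against a median of 42.6% over all peaks.

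Within 50 bp of the summit, TGACG was found at cdc-48.1 and cup-2, and CACGTG at ubql-1. Over all 5735 summits these occurred at 21.5% and 7.36%. TGACGTGG (2.37% of all summits), TGACGTGT (1.20%), TGACGTCA (1.29%) and GAGAGAGA (6.43%) were at 0 of the 3. Of the 9 pathway genes with a peak, 3 had TGACG there, ubc-6, ubxn-2 and ubxn-3, and 1, ubxn-3, had CACGTG. In whole promoter windows TGACG is common, occurring in 77.8% of all genes, and CACGTG occurred in 22.2%. A match is a description of the sequence and not evidence of a site in use.

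The 101 bp around these 3 summits, at chrII:7478843-7478943 for ubc-6, chrIV:2725960-2726060 for ubxn-2 and chrII:221348-221448 for ubxn-3, are shown because they hold every match within 50 bp of a replicated promoter summit in the longer list. They are written on the strand of the gene, and capitals mark the same 6 motifs. At ubc-6 the first block of capitals is a pair of matches to TGACG side by side, and another match covers the summit.
ubc-6: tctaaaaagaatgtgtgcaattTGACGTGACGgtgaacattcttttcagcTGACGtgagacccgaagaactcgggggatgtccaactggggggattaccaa
ubxn-2: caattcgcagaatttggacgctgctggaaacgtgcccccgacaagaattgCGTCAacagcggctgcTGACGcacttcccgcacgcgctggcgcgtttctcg
ubxn-3: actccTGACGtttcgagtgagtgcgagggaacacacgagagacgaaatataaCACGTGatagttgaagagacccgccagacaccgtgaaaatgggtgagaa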

How the data were processed

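ChIP-seq of tagged CRH-2 in 2 replicates of whole L2 larvae, 1 group, was used as deposited region lists in narrowPeak format on ce11, and the ce10 copies were not used. Per the deposited file lists, regions were derived from each replicate's alignments and from both pooled, with a control, and the thresholded list from these 3. All 5735 of its peaks were the strongest regions of the pooled list. The aligner, the peak caller, their versions and the read depth are not stated there. The signal, the −log10 q-value and the summit offset, another value of the format, are the authors' deposited values. All columns used were mapped, with 0 left out. No control library was analysed, so signal common to open chromatin was not tested.

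Coordinates were matched to WBcel235 (Ensembl release 115, 19973 nuclear protein-coding genes; RefSeq sequence), and all 9 members and 24 other genes matched by symbol. The relative signal takes the strongest region of a replicate that overlaps the replicated peak by at least 1 bp. For ufd-1, sel-1 and cdc-48.2, which had no such peak, it takes the strongest region with its summit in the promoter window. The members, the longer list, the motifs and the windows were chosen with earlier results of these data known, and no test was run across genes. The text names all members, genes sharing their summits, the next peak in rank after cdc-48.1 and, by rule, the 8 strongest of the longer list and 5 without a peak. Other genes named, among them ubxn-1, atx-3, rnf-121, ddi-1, chn-1, ubc-15, F19B6.1 and syx-5, were added after their values were seen. The window search was tested on simulated data. The search for repeated sequences of 31 bases was added after the data were seen. Alternatives changed the window, the strictness, the replicates, the gene assignment, the overlap, the scaling and the motif window. Python 3.11.15, numpy 2.4.6, pandas 2.3.3 and matplotlib 3.10.9 were used.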

Additional observations from a re-analysis of the deposited data

How the results depend on the processing

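The count of 3 members with a promoter peak was 1 with a window of 500 bp upstream to 100 bp downstream, where cdc-48.1 alone was left beside 15.5% of all genes, since the summits of ubql-1 and cup-2 lie 547 and 588 bp upstream. When each summit was given to the protein-coding gene with the closest 5′ end, it was 2 (15.3% of all genes), because the cup-2 peak went to tag-353. Non-coding genes were left out of this assignment. Their 5′ ends were closer at ubql-1 (VF15C11L.1, 18 bp) and at cup-2 (F25D7.11, 75 bp). Under the other alternatives it was 3. These were 2000 bp upstream to 500 bp downstream (24.5% of all genes) and the 2867 strongest peaks (11.2%). The others were replicate 2 alone (19.0%) and replicate 1 alone (18.8%). The count of members with a shared summit, 2, became 0 with the narrow window and 0 by the closest 5′ end, which allows no sharing, and was 3 with the wide window. The longer list had 7 to 11 genes with a peak over all alternatives, against 9, while the share of all genes moved too. It had 11 with the wide window (24.5% of all genes) and 7 with the narrow window (15.5%). By the closest 5′ end it had 7 (15.3%), and with the 2867 strongest peaks 8 (11.2%). It had 9 without replicate 1 (19.0%) and 8 without replicate 2 (18.8%). The ratio of cdc-48.1 to cdc-48.2, 69.1 in the pooled list, was 31.9 without replicate 2. It had no value without replicate 1, where no region lay in the cdc-48.2 window, and overlap and scaling do not apply to it. The relative signal of cdc-48.1 was 15.5 with the stricter overlap and 15.5 when scaled by each replicate's own strongest regions. TGACG was at 2 of the 3 member summits with 25 bp and with 100 bp to each side, beside 12.8% and 33% of all summits. It was also at 2 with the summits of either replicate. The CACGTG at ubql-1 was not found with 25 bp to each side, where 4.25% of all summits had this motif. No paired analysis was possible because there is 1 group. Depth is unknown, and 2 replicates limit every SD.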

Other observations

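Below the replicated list, the longer list of pathway genes had weak pooled regions that were chosen for mention after their values were seen. In the pooled list 16 of the 24 genes had a region in the window, beside 45.0% of all genes. Among genes of the longer list without a promoter peak, the strongest regions were at rnf-121, an ER ligase gene, with a signal of 47.1 (rank 7993), the protease-like gene ddi-1 with 44.8 (rank 8485), and chn-1, which encodes the ligase CHIP, with 43.6 (rank 8774). These ranks lie around those of ufd-1 (8216) and sel-1 (8802). For the members and the longer list, motifs were searched within 100 bp of replicated promoter summits. For genes with none, only the strongest pooled region in the window was searched, and weaker regions were not. The one CREB palindrome TGACGTCA found in this search was at ubc-15. It lay 27 bp from the summit of a region with a signal of 19.5 at rank 23611 of 30000. In the window of ubc-15 66.0% of positions held a unique sequence of 31 bases.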
